A study of Gallus gallus with 205 samples.

Results

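Transcripts of 10 genes of WNT signalling were followed over single cells of the gastrulating chicken embryo: the ligands WNT8A, WNT5A, WNT3A and WNT11, the target genes AXIN2, LEF1 and TCF7, and the inhibitors SFRP2, DKK1 and TRABD2B. The genes were listed by name, and each had a row in both tables, which share 20581 genes. The cells came from White Leghorn embryos at Hamburger-Hamilton stage 4, from eggs incubated for 20 to 27 hours (22 to 24 hours for 1 cell). The primitive streak, cut out of the area pellucida, gave 27 cells titled cPS, 37 titled cPS1, 59 titled cPS2 and 52 titled cPS3, while 30 cells titled cSR came from what remained of the area pellucida. The labels name no genotype, agent or embryo, and do not say how the streak series differ, so each tissue is 1 sample. Cells are not replicates, so no test was run, and "higher" and "lower" below describe these cells only.

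WNT proteins are secreted, lipid-modified ligands that bind Frizzled receptors. In the canonical branch they also bind the co-receptors LRP5 and LRP6, which stabilises β-catenin and lets it switch on targets together with TCF and LEF factors, whereas other ligands mainly steer cell polarity and movement. In amniotes, canonical WNT signals are needed to form the primitive streak and the posterior mesoderm that leaves it, and extracellular inhibitors limit where the signal is received.

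Levels are given as CPM, a gene's counts in 1000000 counts of the same cell or, where pooled, of all cells of a series. A gene is called detected in a cell from 10 CPM upward. Totals per cell ran from 201170 to 4552697 expected counts, with series medians of 2262998 to 2663855. Exact Poisson intervals of pooled levels and Clopper-Pearson intervals of shares are at 95%. The Poisson intervals cover counting error only, with no allowance for PCR copies or for the spread between cells. Neither kind covers the spread between embryos. CPM is not corrected for transcript length, so levels are compared mainly between series. Where genes are set side by side by CPM or by share of cells, the part of length was not tested. The tissue labels were read against markers. The streak gene T was detected in 173 of 175 streak cells but also in 29 of 30 cSR cells, at 2085 against 1194 pooled CPM. Of the node genes, CHRD was detected in 44 streak cells (25.1%) and FOXA2 in 22 (12.6%) but in no cSR cell. GSC was detected in 15 streak cells (8.57%) against 1 cSR cell (3.33%), and LHX1 in 20% of streak cells against 13.3% of cSR cells. Of 6 endoderm and hypoblast genes, SOX17 was detected in no cell, but CXCR4 was in 52.6% of streak cells against 26.7% of cSR cells, CER1 in 33.7% against 20%, APOA1 in 25.7% against 33.3%, HHEX in 19.4% against 16.7% and RBP4 in 17.7% against 13.3%. Their summed level in single cells ran from 0 to 9058 CPM in the streak and from 0.684 to 330 CPM in cSR, and the vascular mesoderm gene KDR was detected in 34.3% and 70% of cells. The part of these differences in cell makeup in the values below was not tested.

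**Figure D1:**
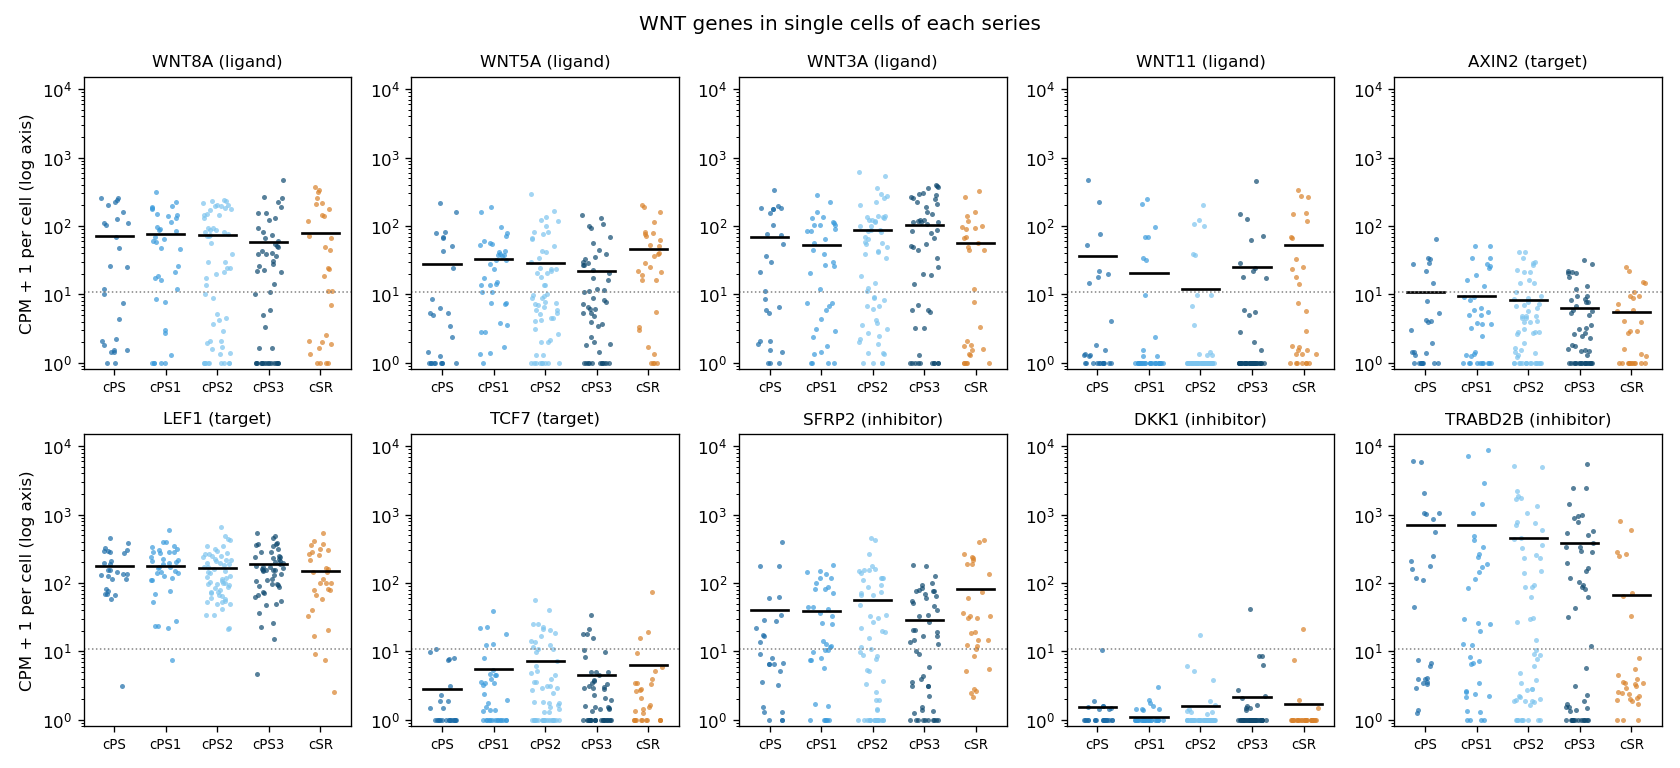
CPM + 1 per cell on a log axis for the 10 genes, with 1 point a cell, grouped by series on the horizontal axis, a bar at the pooled CPM + 1 of each series and a dotted line at the 10 CPM limit. Points of the 5 series overlap for every gene, and TRABD2B alone has cells above 1000 CPM, all 23 of them in the streak series.

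WNT8A, a canonical ligand of the posterior streak, was detected in most cells of every series: 55.6% of cPS (35.3 to 74.5), 72.97% of cPS1 (55.9 to 86.2), 59.3% of cPS2 (45.7 to 71.9), 55.8% of cPS3 (41.3 to 69.5) and 63.3% of cSR (43.9 to 80.1). Single cells ran from 0 CPM to 257 in cPS, 308 in cPS1, 239 in cPS2, 477 in cPS3 and 372 in cSR, around medians of 24.2, 57.1, 23.4, 21.3 and 23.03 CPM in the same order. Pooled, it stood at 78.9 CPM in cSR, 75.6 in cPS1, 72.8 in cPS2, 70.8 in cPS and 56.5 in cPS3, a span of 1.40-fold. Its share intervals overlapped for every pair of neighbouring series and for the first and the last. Cells with and without WNT8A were thus found both inside the dissected streak and in the tissue left around it.

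WNT3A, a canonical ligand linked to mesoderm of the trunk, was detected in 67.3% of cPS3 cells (52.9 to 79.7), 62.7% of cPS2 (49.1 to 74.96), 59.5% of cPS1 (42.1 to 75.2), 55.6% of cPS (35.3 to 74.5) and 53.3% of cSR (34.3 to 71.7). The pooled level had the same order except for cPS1, which came last, below cSR. It was 103.4 CPM in cPS3, 86.7 in cPS2, 67.3 in cPS, 55.2 in cSR and 51.8 in cPS1. The lowest cell of each series held none, the median cell 20.0 (cPS) to 60.5 CPM (cPS3), and the highest cell 279 (cPS1) to 606 CPM (cPS2). The order is that of these pooled values, and the intervals of the shares overlapped throughout.

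WNT5A, a ligand known mainly for steering cell polarity and movement without β-catenin, was higher outside the streak in each of the 4 side-by-side comparisons. Pooled levels were 44.8 CPM in cSR, against 32.2 in cPS1, 27.6 in cPS2, 26.4 in cPS and 20.9 in cPS3. It was detected in 70% of cSR cells (50.6 to 85.3), 64.9% of cPS1 (47.5 to 79.8), 42.4% of cPS2 (29.6 to 55.9), 42.3% of cPS3 (28.7 to 56.8) and 33.3% of cPS (16.5 to 53.96). The cells of cSR ran from 0 to 199 CPM with a median of 25.96, those of cPS from 0 to 217 with a median of 4.07, and cells of all 5 series overlapped.

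WNT11, another ligand of cell movements, was detected in a minority of cells. It was detected in 43.3% of cSR cells (25.5 to 62.6), 29.6% of cPS (13.8 to 50.2), 19.2% of cPS3 (9.63 to 32.5), 18.9% of cPS1 (7.96 to 35.2) and 10.2% of cPS2 (3.82 to 20.8). The median cell held 3.30 CPM in cSR, 0.280 in cPS and 0 in the other series, while the highest cells held 331 CPM in cSR, 476 in cPS, 459 in cPS3, 249 in cPS1 and 203 in cPS2. Pooled levels were 52.2, 35.98, 24.1, 19.7 and 11.1 CPM in the order of the shares. Among the 10 genes it was the only one whose first and last series had separate share intervals, those of cSR and cPS2. A single cell supplied 61.4% of its counts in cPS and 52.95% in cPS3, so its pooled levels there rest on few cells.

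The target genes differed in how widely they were detected. LEF1, a DNA-binding partner of β-catenin, was detected in 98.3% of streak cells (95.1 to 99.7) and 90% of cSR cells (73.5 to 97.9). Its pooled level was 189 CPM in cPS3, 177 in cPS1, 176 in cPS, 164.9 in cPS2 and 149.5 in cSR, a span of 1.26-fold. Single cells nevertheless ran from 2.09 to 652 CPM in the streak and from 1.56 to 532 CPM in cSR, so that the spread within a series was far wider than the difference between series.

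AXIN2, a scaffold of the β-catenin destruction complex and a feedback target, was found in a minority of cells: 25.9% of cPS (11.1 to 46.3), 27.03% of cPS1 (13.8 to 44.1), 20.3% of cPS2 (10.98 to 32.8), 17.3% of cPS3 (8.23 to 30.3) and 13.3% of cSR (3.76 to 30.7). Pooled levels were 9.69 CPM (8.98 to 10.4) in cPS, 8.45 in cPS1, 7.23 in cPS2, 5.28 in cPS3 and 4.55 (4.07 to 5.09) in cSR. All series began at 0 CPM and their highest cells lay between 24.0 CPM in cSR and 63.96 in cPS. The median cell held 0.964 CPM in cPS, 2.76 in cPS1, 2.94 in cPS2, 1.38 in cPS3 and 1.81 in cSR. By the median cell cPS and cPS3 were thus below cSR, and 1 cell supplied 30.9% of the cPS counts. By pooled level each streak series stood above the shared cSR cells, by 0.18 to 0.95 in log2 ratios with 1 CPM added. The cPS level itself was 2.13 times that of cSR, which the added 1 CPM brings just under 2-fold. Scaled with TMM factors, the log2 ratio was 1.07, just past 2-fold.

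TCF7, the other DNA-binding partner of β-catenin among the 10 genes, was the target with the smallest share over all cells, 13.2%. It was detected in 22.0% of cPS2 cells (12.3 to 34.7), 16.2% of cPS1 (6.19 to 32.01), 10% of cSR (2.11 to 26.5), 9.62% of cPS3 (3.20 to 21.03) and in none of the 27 cPS cells, where the interval reaches 12.8%. Pooled levels were 6.27 CPM in cPS2, 5.39 in cSR, 4.47 in cPS1, 3.54 in cPS3 and 1.79 (1.49 to 2.12) in cPS. The highest cell held 72.3 CPM in cSR and 9.84 CPM in cPS, and that 1 cSR cell supplied 51.2% of the cSR counts.

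The inhibitors differed in their distributions. SFRP2, a secreted Frizzled-like protein that binds WNT ligands, was detected in 73.3% of cSR cells (54.1 to 87.7), 59.5% of cPS1 (42.1 to 75.2), 53.8% of cPS3 (39.5 to 67.8), 49.2% of cPS2 (35.9 to 62.5) and 44.4% of cPS (25.5 to 64.7). Cells of cSR ran from 1.16 to 424 CPM with a median of 30.03, while the streak medians were 7.08 in cPS, 13.02 in cPS1, 9.88 in cPS2 and 13.2 CPM in cPS3. Its pooled level was highest in cSR, at 81.8 CPM (79.7 to 83.9), against 55.2 in cPS2, 39.0 in cPS, 38.4 in cPS1 and 27.8 in cPS3.

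DKK1, a secreted protein that blocks LRP5 and LRP6, was seldom detected. It reached 10 CPM in 3 cells in all, 1 each in cPS2, cPS3 and cSR, with 16.1, 40.2 and 19.9 CPM. Pooled levels were 1.16 CPM or lower in every series, and 1 cell supplied 51.6 to 70.8% of the counts in cPS, cPS2, cPS3 and cSR. With 3 such cells, its series cannot be ordered and no correlation with it is given.

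TRABD2B, called TIKI2 in human and Xenopus work, encodes a membrane-bound protease that clips WNT ligands outside the cell, and is a cell-surface rather than a diffusible inhibitor. Beyond its higher pooled level in the streak, it was spread very unevenly over cells. The lowest, median and highest cells held 0.239, 109.1 and 6039 CPM in cPS, 0, 18.6 and 8670.3 CPM in cPS1, 0, 9.40 and 5149 CPM in cPS2, 0, 36.8 and 5491 CPM in cPS3, and 0, 2.37 and 812 CPM in cSR. It was detected in 55.6% of cPS cells (35.3 to 74.5), 56.8% of cPS1 (39.5 to 72.9), 53.8% of cPS3 (39.5 to 67.8), 49.2% of cPS2 (35.9 to 62.5) and 26.7% of cSR (12.3 to 45.9). The streak series lay together and cSR below them, although the cSR interval overlapped those of all 4. Pooled levels were 700 CPM in cPS1, 453 in cPS2 and 378 in cPS3, beside which cPS stood as the highest and cSR as the lowest of the 5. Of the 175 streak cells, 23 held at least 1000 CPM, and a single cell supplied 22.8 to 45.99% of the counts of its series.

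The main comparison set cPS against cSR, which share blocks of consecutive library identifiers, on log2 ratios of pooled CPM with 1 CPM added; 2-fold was counted among genes at 5 CPM or more in either. Of the 10 genes, 9 reached that level and DKK1 did not. TRABD2B was the only one at least 2-fold higher in cPS, with a log2 ratio of 3.41, where 11.7% of all 9698 genes measured were. TCF7 (-1.20) and SFRP2 (-1.05) were at least 2-fold lower, where 14% of all genes were; scaled with DESeq2 size factors, SFRP2 was at -0.96, short of 2-fold, and TCF7 at -1.09 but under 5 CPM in both, so neither was counted. The median of the 9 was -0.16, against -0.042 for all genes. Over 9 genes, calls on 1 and 2 are close in share to those of all genes, so the counts themselves are no result about the members.

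The TRABD2B ratio was 3.59 in the first block of library identifiers and 3.005 in the second. The lower values did not hold in both blocks. In block 1 SFRP2 had 23.5 pooled CPM in cPS against 112 in cSR, and in block 2 it had 60.2 against 58.3, log2 ratios of -2.21 and 0.045. TCF7 stood at 1.12 and 10.9 CPM in block 1, and at 2.70 and 1.09 CPM in block 2, ratios of -2.49 and 0.83. WNT8A had 91.8 against 80.3 CPM in block 1 and 42.3 against 77.9 CPM in block 2, ratios of 0.19 and -0.87. LEF1, within 2-fold over both blocks, was likewise higher in cPS in block 1 (226 against 130 CPM) and lower in block 2 (108.8 against 164.9 CPM). Leaving out each gene's highest cell per tissue left ratios of 3.26 for TRABD2B, -1.35 for SFRP2 and 0.70 for AXIN2. It brought TCF7 to -0.64, short of 2-fold, and WNT11 from -0.52 to -1.38, past it.

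The other streak series were set beside the same cSR cells, so these comparisons are not independent of each other. TRABD2B was higher in cPS1 (3.39; 14.1% of all genes higher), cPS2 (2.76; 10.7%) and cPS3 (2.50; 10%). WNT11 was at least 2-fold lower in cPS1 (-1.36; 10% of all genes lower), cPS2 (-2.14; 10.2%) and cPS3 (-1.08; 10.8%), and at -0.52 in cPS with the cell that supplied most of its counts there. SFRP2 was at least 2-fold lower in cPS1 (-1.07) and cPS3 (-1.52), and WNT5A in cPS3 (-1.06). Over all 175 streak cells TRABD2B was higher (2.97; 9.54% of all genes higher) and WNT11 lower (-1.31; 7.53% of all genes lower). The series cPS1, cPS2 and cPS3 share no library block with cSR, so tissue and block cannot be told apart in them. Without the 6 cSR cells that also carry an epiblast label, WNT11 stood at 65.9 CPM in cSR, and the 6 cells themselves held 1.999 CPM pooled.

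**Figure D2:**
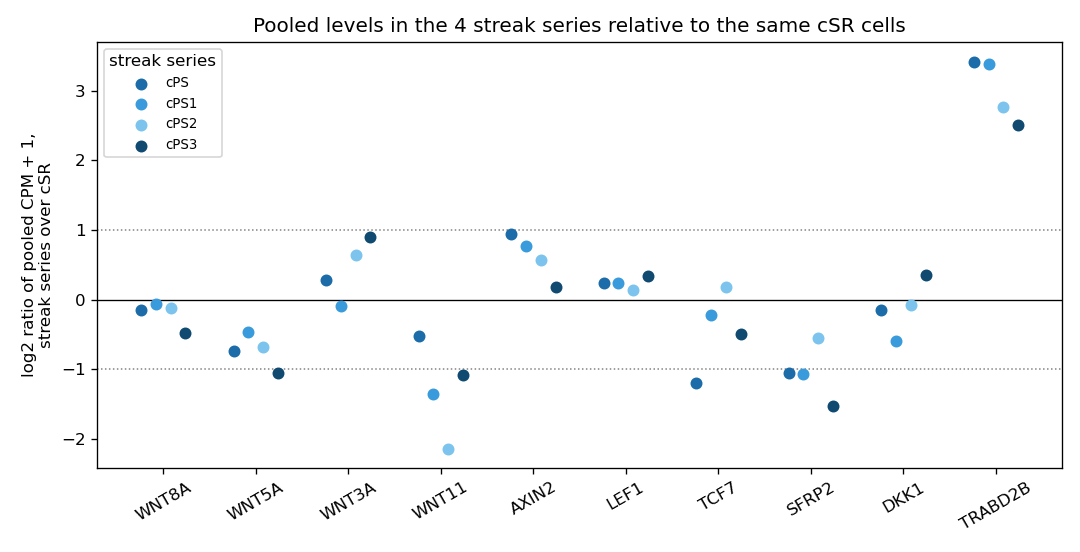
Log2 ratio of pooled CPM + 1 of each streak series over the same cSR cells (vertical axis) for the 10 genes (horizontal axis), 1 point a series, with dotted lines at 2-fold. TRABD2B lies between 2.50 and 3.41, WNT11 and SFRP2 lie below 0 in all 4 series, and WNT8A and LEF1 lie within 2-fold.

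The remaining pathway was described from a list of 97 other genes, of which 82 were in both tables and 55 reached 5 CPM in cPS or cSR. Of the 55, 8 were at least 2-fold higher in cPS (14.5%, against 11.7% of all genes) and 4 at least 2-fold lower (7.27%, against 14%), with a median log2 ratio of -0.0090 against -0.042 for all genes. The share higher was near that of all genes, so that count is no result about the list. None of the 13 other WNT ligands in both tables reached 5 CPM in cPS or cSR, where 9698 of all 20581 genes did. WNT8A, WNT3A, WNT5A and WNT11 did, but they were chosen as members with earlier results of these data known. A row named WNT11B, outside the list, had 19.01 CPM in cPS and 10.7 in cSR. The means to release ligands were detected: WLS, the carrier that brings WNT proteins to the surface, had 458 pooled CPM in cPS against 357 in cSR, and PORCN, which adds their lipid, had 7.37 and 8.12 CPM.

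Among receptors, FZD4 was higher in cPS (10.6 against 3.77 CPM), where 1 cell supplied 65.3% of its counts; without the highest cell of each tissue it had 3.89 against 2.42 CPM, a log2 ratio of 0.52. Of the others, FZD6 (30.2 against 63.8 CPM) and the co-receptor LRP6 (22.3 against 59.7 CPM) were lower. LRP5 had 77.2 against 39.4 CPM, just under 2-fold. The R-spondin receptor LGR5, itself known as a WNT target, was higher in cPS at 20.2 against 2.93 CPM, while the ligand RSPO3, which strengthens WNT signals, stood at 199 and 191 CPM. Among cytoplasmic genes, the kinase gene CSNK1E was higher (16.3 against 6.64 CPM), and β-catenin itself, CTNNB1, stood at 658 and 387 CPM, within 2-fold.

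Among other targets, the zinc-finger gene SP8 (9.54 against 1.10 CPM) and the presomitic mesoderm regulator MSGN1 (93.5 against 38.6 CPM) were higher in cPS, and the posterior homeobox gene CDX4 (36.8 against 151.3 CPM) was lower. Of the other inhibitors, CER1, a secreted protein that binds Nodal and, as shown in Xenopus, WNT ligands, was higher in cPS at 104.7 against 29.8 CPM, and SFRP1 stood at 36.7 and 43.1 CPM. In the polarity branch PRICKLE2 (12.2 against 2.36 CPM) and CELSR1 (41.7 against 11.2 CPM) were higher and SCRIB (1.23 against 7.21 CPM) was lower, but 1 cell supplied 63.1% of the SCRIB counts in cSR, and without the highest cells it had 0.940 against 2.78 CPM, under the minimum level. Of these 12 genes, 6 passed 2-fold the same way in both library blocks, LGR5, SP8, PRICKLE2, LRP6, CDX4 and SCRIB, as did 38.7% of all 2486 genes at 2-fold. FZD4 (-0.57) and FZD6 (0.40) in block 1 and CELSR1 (-0.067) in block 2 had ratios of the other sign. Without the highest cells, a setting added after the values were seen, the other 10 of the 12 kept their direction at 2-fold. With cPS1, cPS2 and cPS3 each set against cSR, only LGR5 and CDX4 of the 12 passed 2-fold the same way every time. FZD4, SP8, MSGN1 and CELSR1 did so in none of these series. By share of cells, MSGN1 was detected in 32.6% of streak cells and 36.7% of cSR cells.

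Whether the 10 genes go together in the same cells was described by Spearman's rho of log2(CPM + 1) over the cells of each series. The 45 pairs were read only in series where both genes were detected in at least 5 cells. Cells differ in depth. Over the cells of a series, rho of a member with the cell's total ran from -0.40 to 0.34. With the number of genes detected it ran from -0.16 to 0.54. The cells of cPS (16 and 11), cPS2 (31 and 28) and cSR (13 and 17) were split over blocks of library identifiers. Those of cPS1 and cPS3 each came from a single block. Shares over all streak cells, given below, pool series and blocks. The part of block in the correlations and shares was not tested. These correlations are descriptions and have no p-value. As background, the median rho was taken over all pairs of genes detected in as many cells of that series, within 1 cell. These medians lay between -0.0058 and 0.046 for every pair. The spread of rho over those gene pairs is not given.

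Ligands went with ligands. Over the 6 ligand pairs, 24 of 30 values were above 0, with a median of 0.26. WNT8A with WNT3A had a rho of 0.48 in cPS, 0.50 in cPS1, 0.47 in cPS2, 0.55 in cPS3 and 0.18 in cSR. WNT8A with WNT5A had 0.47, 0.46, 0.25, 0.53 and 0.24, and WNT5A with WNT3A 0.37, 0.37, 0.58, 0.37 and 0.32, in the same order of series. All 3 pairs were thus above 0 in every series, although in cSR WNT8A with WNT5A stood at -0.036 without the 6 epiblast-labelled cells and at -0.44 over cells with both genes detected. WNT11 stood apart from them, with values of -0.26 to 0.31 and no pair of 1 sign in all 5 series.

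Over the 175 streak cells, WNT3A was detected in 80.2% of the cells with WNT8A and in 34.8% of the 69 cells without it, and WNT5A in 59.4% and 24.6%. Of these cells, 53 held all of WNT8A, WNT5A and WNT3A and 37 held none, and of the 30 cSR cells 10 held all and 5 none. Over cells with both ligands at 10 CPM or more, the median over the ligand pairs was 0.11.

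Ligands also went with targets. Of the 48 values of the 12 ligand-target pairs, 44 were above 0, with a median of 0.25, and 20 were at 0.3 or more. AXIN2 had a rho with WNT8A of 0.53 in cPS, -0.0014 in cPS1, 0.20 in cPS2 and 0.64 in cPS3, and with WNT5A of 0.58, 0.33, 0.22 and 0.40 in the same order; it was detected in too few cSR cells. LEF1 with WNT8A had 0.29, 0.12, 0.14, 0.39 and, in cSR, 0.40, and TCF7 with WNT8A had 0.21, 0.43 and 0.34 in cPS1, cPS2 and cPS3. WNT11 had no common sign with LEF1, at -0.24, -0.079, 0.37, 0.35 and, in cSR, 0.27. With AXIN2 it had 0.13, -0.18, 0.11 and 0.13 in the streak series, and with TCF7 0.040 to 0.12. In streak cells AXIN2 was detected in 28.3% of the cells with WNT8A and in 11.6% of those without it. The targets went with each other as well, with all 10 values of their 3 pairs above 0 and a median of 0.23. Over cells with both genes at 10 CPM or more the ligand-target median was 0.10. In those cells WNT8A changed sign with AXIN2 in cPS, LEF1 in cSR and TCF7 in cPS2, as did WNT11 with LEF1 in cPS2. With the number of genes detected in a cell, rho was 0.19 to 0.47 for WNT5A, 0.033 to 0.54 for WNT3A and 0.013 to 0.45 for AXIN2. For WNT8A, WNT11, LEF1 and TCF7 it was -0.16 to 0.32, 0.0060 to 0.19, -0.10 to 0.32 and -0.0405 to 0.44. The part of this in the ligand-target values was not tested.

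**Figure D3:**
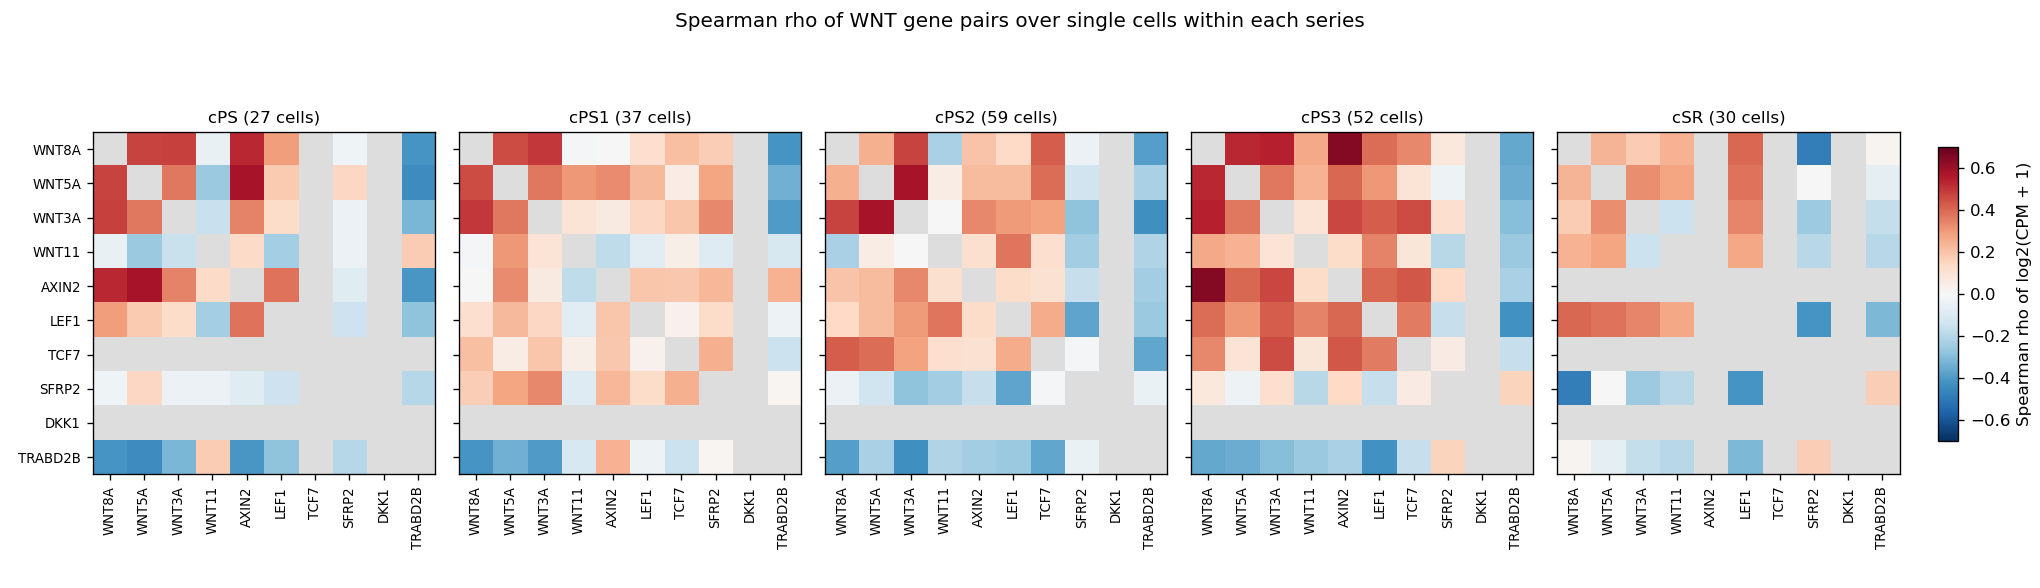
Spearman rho of log2(CPM + 1) for each pair of the 10 genes over the cells of each series, red above 0 and blue below 0, with grey squares where a gene was detected in under 5 cells and on the diagonal. The block of ligands and targets is mostly red and the TRABD2B row mostly blue in the streak series, where WNT8A and TRABD2B lie between -0.41 and -0.36.

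Ligands and inhibitors mostly went apart. Of the 40 ligand-inhibitor values, 32 were below 0, with a median of -0.19. TRABD2B with WNT8A had a rho of -0.41 in cPS, -0.41 in cPS1, -0.39 in cPS2 and -0.36 in cPS3, but 0.019 in cSR. With WNT3A it had -0.32, -0.40, -0.43, -0.30 and, in cSR, -0.17, and with WNT5A -0.44, -0.34, -0.23, -0.34 and -0.064. Among targets, TRABD2B was below 0 with LEF1 in all 5 series, from -0.42 to -0.037, and with TCF7 in the 3 that could be read, but with AXIN2 it had -0.41, 0.24, -0.24 and -0.23 in the streak series, where it was detected in 52.6% of cells with AXIN2 and 53.3% of those without. With WNT11, TRABD2B had 0.18, -0.11, -0.21, -0.26 and, in cSR, -0.19. Over the 20 values of TRABD2B with ligands, 18 were below 0, with a median of -0.31. Over cells with both genes detected, its values with WNT8A in cPS and with WNT3A in cPS1 changed sign. The rho of TRABD2B with total counts lay between -0.22 and 0.0057, and with the number of genes detected between -0.11 and 0.30.

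SFRP2 had no common sign with WNT8A, WNT3A or WNT5A, but was below 0 with WNT11 in all 5 series (-0.24 to -0.041). Its values with ligands were below 0 in 14 of 20, with a median of -0.040 and a range of -0.48 to 0.34. The lowest was with WNT8A in cSR (-0.48), and with LEF1 it had -0.41 in cSR and -0.37 in cPS2. In cPS1, by contrast, SFRP2 had a rho of 0.34 with WNT3A and 0.28 with WNT5A. Over cells with both genes detected, its values with LEF1 in cPS2 and with WNT3A in cPS1 changed sign. SFRP2 and TRABD2B did not follow each other, with values of -0.20 to 0.17.

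TRABD2B was detected in 41.5% of the streak cells with WNT8A and in 71.01% of those without it, and in 42.2% of those with WNT3A and 71.2% of those without. By the number of the 3 ligands WNT8A, WNT5A and WNT3A that a streak cell held, it was detected in 32 of 37 cells with none, 18 of 34 with 1, 20 of 51 with 2 and 23 of 53 with all 3. The median TRABD2B level in those cells was 492, 172.5, 2.93 and 5.14 CPM. In cSR the same counts were 3 of 5, 2 of 4, 2 of 11 and 1 of 10. Of the 23 streak cells at 1000 CPM or more, a level chosen after the values were seen, 4 held WNT8A and 3 held WNT3A, 21 held the T-box gene EOMES and 16 held CHRD, an antagonist of BMP made by the node. EOMES was detected in 112 and CHRD in 44 of all 175 streak cells.

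**Figure D4:**
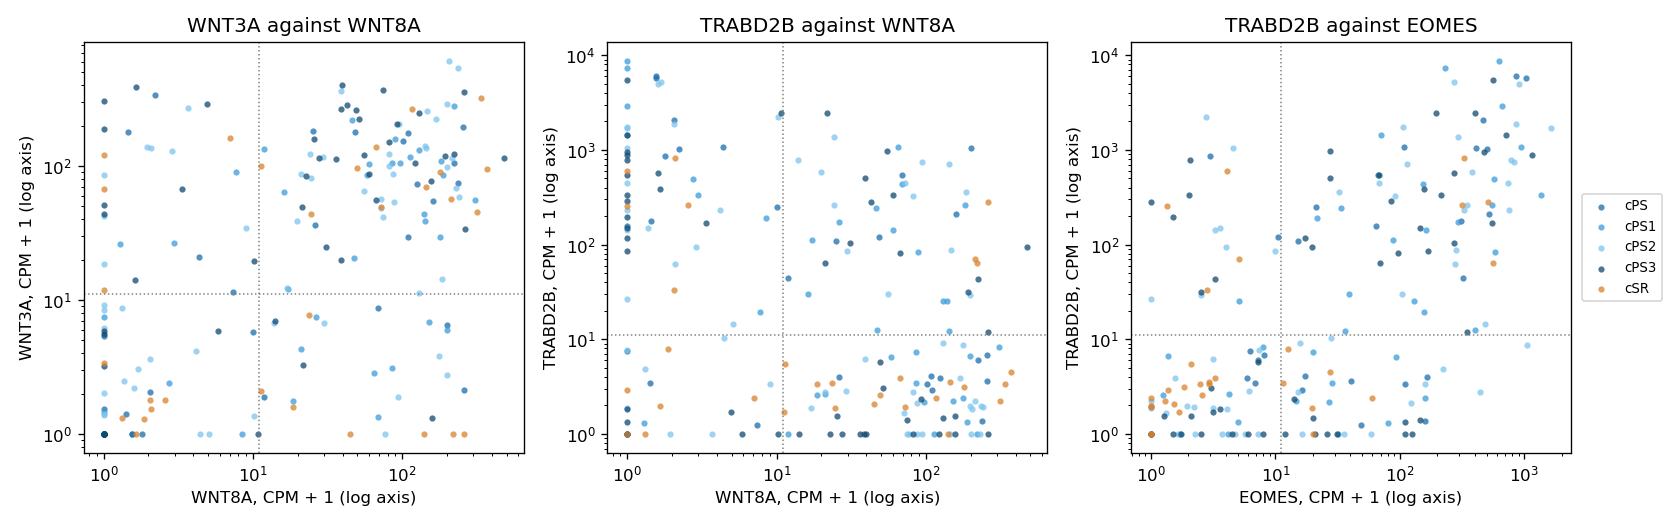
CPM + 1 per cell on log axes for WNT3A against WNT8A, TRABD2B against WNT8A and TRABD2B against EOMES, 1 point a cell, coloured by series, with dotted lines at 10 CPM. Of the 23 streak cells at 1000 CPM or more of TRABD2B, 4 lie to the right of the WNT8A line and 21 to the right of the EOMES line.

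Genes most like each member were those with the highest median rho over the 5 series, among 8949 genes detected in at least 10% of cells, for members detected in at least 20% of cells. Only genes with a symbol, not a LOC number or an Ensembl identifier, were ranked. The shares at 0.3 or more are over all genes compared. Nearest WNT8A were SNAI2, a transcription factor of epithelial-mesenchymal transition (0.59), DACT1, a Dishevelled-binding protein (0.52), and MYC (0.49); 0.827% of the genes were at 0.3 or more with WNT8A. Among the genes nearest WNT5A were WNT8A (0.46) and CDX4 (0.45), with 1.29% of genes at 0.3 or more. Nearest WNT3A were HOXB1 (0.53), T (0.48) and WNT8A (0.48), with 0.738%. WNT8A was thus among the 3 nearest genes of both WNT5A and WNT3A, of those with a symbol among the 8948 compared.

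Nearest WNT11 were NTM, a cell adhesion protein (0.47), ATP6AP1L (0.43) and MYO10L (0.42), with 0.581% of genes at 0.3 or more. Nearest AXIN2 were the Notch ligand gene DLL1 (0.44), WNT5A (0.40) and MT3 (0.39), with 0.536%; its cSR values rest on 4 cells with AXIN2. Nearest LEF1 were PREX1, a Rac activator (0.51), AGRP (0.48) and HOXB1 (0.45), with 0.872%. Nearest SFRP2 were COPS7A (0.39), ZDHHC15 (0.38) and the tight-junction gene CLDN1 (0.37), with 0.816%. Nearest TRABD2B were EOMES (0.56), the Polycomb-associated gene JARID2 (0.55) and PCSK6, a proprotein convertase (0.52), with 0.771%. EOMES was at 0.48 in cPS, 0.72 in cPS1, 0.56 in cPS2, 0.49 in cPS3 and 0.57 in cSR and was thus above 0 in both tissues. Some of the nearest genes varied between series. SNAI2 with WNT8A stood at 0.23 in cPS1 and 0.15 in cPS2, and at 0.59 to 0.62 in the other series. DACT1 with WNT8A (0.041) and MT3 with AXIN2 (-0.064) were low in cPS2. ZDHHC15 with SFRP2 was at 0.018 in cPS and JARID2 with TRABD2B at 0.12 in cSR. Others varied less, such as NTM with WNT11 (0.32 to 0.54) and PREX1 with LEF1 (0.42 to 0.69).

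Set against markers of cell types, WNT3A followed the streak gene T in every series, from 0.22 in cPS2 to 0.70 in cSR, and WNT8A followed it from 0.16 to 0.56. EOMES, another streak marker, did not go with them by share of cells. It was detected in 58.7% of streak cells with WNT3A and 72.7% of those without, and for WNT8A in 59.4% and 71.01%. In cSR its share was also lower in cells with either ligand. WNT8A, WNT5A and WNT3A each went with MSGN1, a gene of paraxial mesoderm precursors, in all 5 series, with medians of 0.36, 0.33 and 0.36. WNT5A also went with ALDH1A2, which makes retinoic acid (0.30 to 0.41), and with the haemato-vascular factor GATA2 (0.22 to 0.52). WNT11 went with KDR, at 0.084, 0.55, 0.42 and 0.23 in the streak series and 0.60 in cSR, and was detected beside MSGN1 in 18 of its 31 streak cells (58.1%), against 27.1% of those without it. WNT11 and T differed in sign between tissues, with -0.31 to -0.12 in the streak and 0.15 in cSR.

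The inhibitors had other partners. SFRP2 went with SOX3, an epiblast and neural gene, in all 5 series (0.16 to 0.56), and was below 0 with MSGN1 in 4 of 5. In the streak, SOX3 was detected in 34 of 91 cells with SFRP2 and in 12 of 84 without. That was not particular to SFRP2, as SOX3 was detected in 34 of 93 streak cells with TRABD2B and in 12 of 82 without. TRABD2B went with CHRD in each streak series (0.26, 0.53, 0.47 and 0.45), with CHRD detected in 38 of 93 streak cells with TRABD2B and in 6 of 82 without. It was below 0 in all 5 series with MSGN1 (-0.51 to -0.17), KDR (-0.36 to -0.17) and GATA2 (-0.48 to -0.22).

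**Figure D5:**
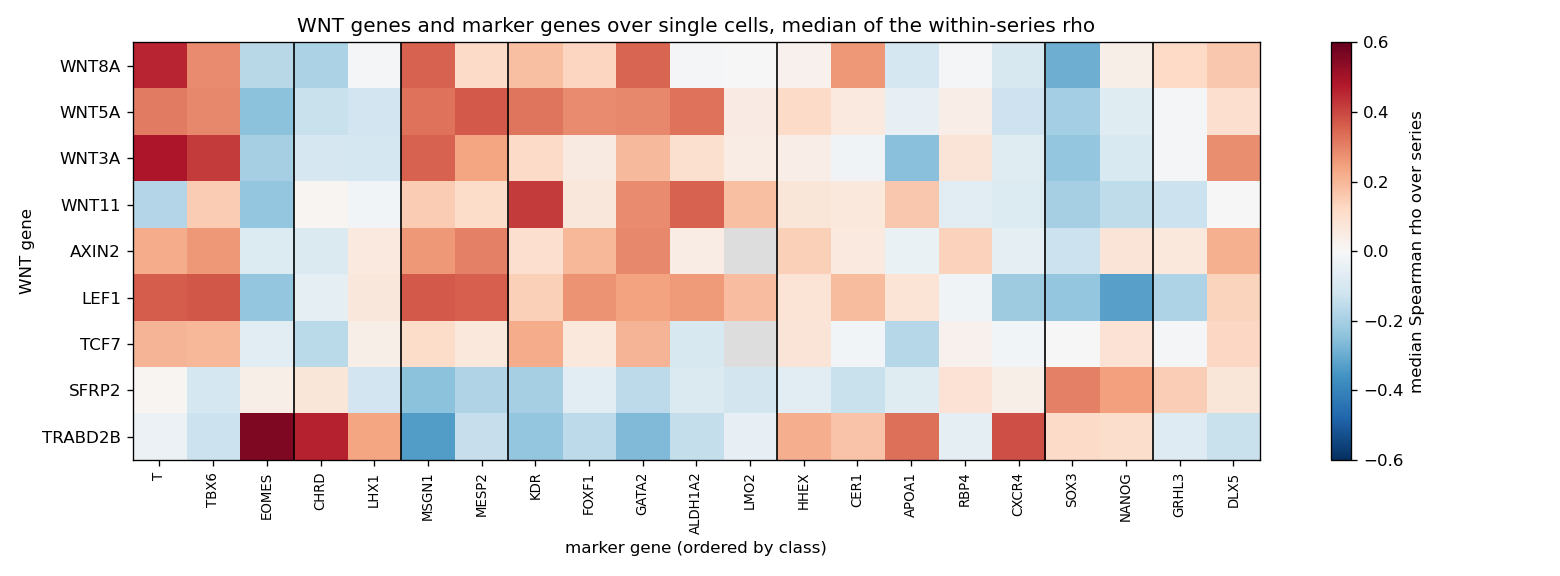
Median over the series of the within-series Spearman rho of each WNT gene (rows) with marker genes (columns, ordered by class with black lines between classes), red above 0, blue below 0 and grey where fewer than 3 series could be read. TRABD2B is red with EOMES (0.56) and CHRD (0.46) and blue with MSGN1 (-0.33), WNT3A is red with T (0.48), WNT11 with KDR (0.42) and SFRP2 with SOX3 (0.30).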

How the data were processed

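Each library is that of 1 cell. The tables hold expected counts, unscaled, as the authors deposited them. Per the submitters' processing notes the build was galGal4 and the tools were RSEM 1.2.3, CASAVA 1.8.2 and Bowtie, in version 0.12.9 or, for 1 cell, 0.12.8; their roles and settings, the annotation and any filter were not given in the sources used. The labels mention no molecular identifiers, and PCR copies may be counted. The streak table is held only in part and its last, incomplete row was dropped, which left 20581 genes in both tables; 640 genes of the surrounding-region table, with 3.42% of its counts, entered no comparison.

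Cells were grouped by the series in their titles, and library identifiers fall into 4 blocks, of which cPS and cSR share 2. No cell was removed and no doublet caller was run; the highest Pearson correlation between 2 cells was 0.857. Pooled CPM is the summed counts over the summed totals. Log2 ratios were taken after adding 1 CPM (so low genes have ratios nearer 0), with a minimum of 5 CPM and a limit of 2-fold. No test was run. The genes named were all 10 members, up to 4 genes per role of the pathway list with the highest pooled level (not every one is printed) and each at 2-fold, the 3 genes most like each member, and the markers. The members, lists and rules were chosen with earlier results of these data known. Sequences and coordinates are not used here.

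Alternatives covered blocks, cells, scaling (TMM of edgeR 4.0.16, size factors of DESeq2 1.42.0 over 2082 genes counted in every cell of cPS and cSR, in R 4.3.3), pseudocount, minimum level, detection limit, thinning to 1000000 counts and the correlation measure. Calculations used Python 3.11.15, numpy 2.4.6, scipy 1.17.1 and pandas 2.3.3, were tested on simulated data, and were plotted with matplotlib 3.10.9. One gene that the rule for the most similar genes selects is not reported here.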

Additional observations from a re-analysis of the deposited data

Results flagged for a closer look

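Of the pathway list, 7 genes had rows in the surrounding-region table only and entered no comparison with the streak; they are given here because counts were found for them outside the main measurement. Pooled over the 30 cSR cells, relative to all genes of that table, TCF7L2, a DNA-binding partner of β-catenin, stood at 222 CPM and was detected in all 30 cells. BTRC, which marks β-catenin for breakdown, stood at 41.6 CPM (16 cells), and FRZB, a secreted WNT inhibitor, at 37.99 CPM (14 cells). The ligand WNT5B stood at 8.54 CPM (7 cells) and the receptor FZD7 at 5.001 CPM (4 cells). FZD5 (0.345 CPM, in no cell at 10 CPM or more) and SFRP5 (0.110 CPM, 1 cell) were near 0. Their levels in the streak are not analysed here.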

How the results depend on the processing

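TRABD2B was above 2-fold in cPS under all 13 alternatives, with 2.76 for cPS2 and 2.50 for cPS3 in place of cPS. SFRP2 stood at -2.21 in block 1, 0.045 in block 2 (reversed), -0.56 for cPS2 and -1.52 for cPS3. TCF7 stood at -2.49 in block 1, 0.83 in block 2 (reversed), -0.22 for cPS1, 0.19 for cPS2 (reversed), -0.49 for cPS3, -0.23 for all streak cells, -0.61 with a pseudocount of 5 CPM, where SFRP2 (-0.98) also missed 2-fold, and -0.64 without the highest cells. Of all genes, 493 were higher and 645 lower at a minimum of 20 CPM, and 2085 were lower in block 2 and 724 for all streak cells. Of the members, 2 were higher in block 1, without the epiblast-labelled cells and under TMM, AXIN2 joining at 1.28, 1.05 and 1.07. The number lower was 1 in block 2 (WNT5A, -1.14) and for all streak cells (WNT11, -1.31), neither called in the main comparison. It was also 1 without the epiblast-labelled cells, under TMM and at 20 CPM, and 0 with DESeq2 size factors. Of the list, 4 were higher at 20 CPM, and 10 were lower in block 2, 1 for all streak cells and 8 with no minimum. In the main comparison 1133 of all genes were higher and 1353 lower, and of the list 8 and 4. The shares over all genes under these settings are not given here, so the counts are no result about the members or the list. TMM moved the median ratio of all genes up by 0.14 and raised the share of calls that were higher from 45.6% to 54.2%. The causes were not tested.

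Of 55 correlations at 0.3 or more from 0, 52 stayed close under Pearson's r, 52 after thinning and 50 without the 2 cells farthest from the median, but 4 of 7 without the epiblast-labelled cells. Over cells with both genes detected, 11 stayed close and 24 moved, class medians moved to 0.11 for ligand pairs and 0.10 for ligand-target pairs, and 9 values reversed: WNT8A with AXIN2 (-0.086) and TRABD2B (0.94) in cPS, LEF1 in cSR (-0.060) and TCF7 in cPS2 (-0.661); WNT3A with SFRP2 (-0.22) and TRABD2B (0.24) in cPS1; LEF1 with WNT11 (-0.60) and SFRP2 (0.12) in cPS2 and AXIN2 in cPS3 (-0.30). The reversed values rest on 6 to 29 cells with both genes, the most for LEF1 with SFRP2 in cPS2. No paired analysis was possible because numbers in the titles only number cells and no test was run.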

Other observations

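Some WNT genes outside the lists were also counted. A row named WNT11B was detected in 23.4% of streak cells and 23.3% of cSR cells, at 16.5 and 10.7 pooled CPM. Its pooled level was highest in cPS2 (25.6 CPM, WNT11 11.1 CPM) and lowest in cPS1 (4.20 CPM, WNT11 19.7 CPM). In cPS, WNT11B had 19.01 CPM and WNT11 35.98 CPM. The share of cells with WNT11B was highest in cPS (29.6%), against 25.4% in cPS2. DACT2, a Dishevelled-binding protein, was detected in 55.4% of streak cells and 46.7% of cSR cells, at 76.5 and 44.7 CPM. SFRP4 was detected in 10 cells, with 83.9 CPM in the highest.

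In the 6 cSR cells with an epiblast label, WNT3A stood at 102.3 CPM against 42.4 CPM in the other 24, and WNT5A at 19.3 against 51.7 CPM. Their median cells held 49.8 and 26.8 CPM of WNT3A, and the 2 sets of cells overlapped for both genes.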
